A study of Mus musculus with 7 samples.

Results

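T cells and natural killer (NK) cells are the lymphocytes that recognise foreign peptides through a rearranged antigen receptor or kill stressed cells without one. In PRA transgenic mammary glands no gene of these cells differed from wild-type at an adjusted p under 0.05, and most of the difference between genotypes in the T cell genes rested on 1 wild-type gland, with a median log2 fold change of -0.74 over 21 tested genes of T cell roles that became -0.08 without it. The genes followed here are 34 that mark T cells, NK cells or their functions, taken as the noncontrol probes that carry one of the 34 names in the scanner files. They have 60 probes of 56605 on the array. A probe was tested where its gland signal stood well above background across a whole genotype, which held for 39 of the 60. This left 28 of the 34 genes with a test, of 22504 gene names tested in all.

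The groups were 3 wild-type and 4 PRA transgenic mice, all nulliparous adults of the FVB strain, 20 to 25 weeks old and killed at diestrus. PRA transgenics are bigenic: GAL-4 under the murine cytomegalovirus promoter drives an added copy of the A form of the progesterone receptor placed behind GAL-4 sites, and the labels call their glands preneoplastic and those of wild-type normal. From each animal 1 abdominal gland was frozen after its lymph nodes had been cut out. Its RNA carried Cy5 and was set against Cy3-labeled Universal Mouse Reference RNA from 11 mouse cell lines that include a thymic T-lymphocyte line and a B-lymphocyte line, so that a log2 ratio below 0 means a signal below that pool. The 7 arrays shared 1 slide, with wild-type in its row 1 and PRA transgenics in its row 2, and genotype and row cannot be told apart. No spot was saturated. Cy5 was well above background for 62.7% to 66.2% of probes in wild-type and 56.7% to 60.2% in PRA transgenics, and Cy3 for 53.2% to 54.0% and 47.2% to 50.6%. The lowest Cy5 signal well above background on an array was 8.75 to 9.89 in wild-type and 12.1 to 15.9 in PRA transgenics. Counts of arrays on which a weak gene was detected therefore rest on unequal limits in the genotypes. The glands are whole tissue, in which fewer cells of a type and less RNA per cell cannot be told apart.

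The T cell receptor recognises peptide on MHC molecules and signals through the CD3 chains and the zeta chain encoded by Cd247. CD4 and CD8 are the coreceptors that hold the kinase Lck, which phosphorylates these chains, and Zap70 then binds to them and phosphorylates the adaptor Lat. Cytotoxic T cells and NK cells kill through granules that hold perforin and granzymes. In the mammary gland, lymphocytes lie among and beneath the epithelial cells, and the inguinal lymph node lies within the abdominal fat pad.

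Some results differ between probes of 1 gene, and of these the probes of Klrk1 and Cd4 are shown here by 30 of their 60 bases each. For Klrk1, which encodes the activating receptor NKG2D, the last 30 bases of probe A_51_P189451 (chr6:129562482-129562771 of mm9, minus strand) and the first 30 of probe A_66_P120419 (chr6:129562442-129562501, minus strand) overlap by the 20 bases in capitals. The first probe spans 290 bases of the genome with 60 bases of sequence.
A_51_P189451: actctcagcaCCTTGATTTCCTCCCAGATA
A_66_P120419: CCTTGATTTCCTCCCAGATAtcccctactc

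For Cd4 the last 30 bases of the brightest probe (A_55_P2013655, chr6:124814711-124814770 of mm9, minus strand) hold AATAAA, the hexamer that marks the end of many transcripts, in capitals. The ends of probes A_51_P236573 (chr6:124815401-124815459) and A_52_P383089 (chr6:124817706-124817765) on the same strand do not hold it.
A_55_P2013655: acagaaaAATAAAggctataAATAAAatgc
A_51_P236573: tgacagtgatgactaagatggcagagataa
A_52_P383089: gcagtgtctactgagtgaaggtgataaggt

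The promoters of Cd3g, Cd3d and Lck are shown because these genes were high together on the same array. RefSeq windows of GRCm38.p6, 250 bases before to 50 after a gene's start, were found for 26 of the 34 genes, 37 windows in all. Cd3g and Cd3d are neighbours on opposite strands, with starts 1355 bases apart. The 250 bases before the start are given for Cd3g (chr9:44980432-44980681, minus strand), Cd3d (chr9:44981536-44981785, plus strand) and the first of 2 windows of Lck (chr4:129573642-129573891, minus strand). Capitals mark TGTGGT or its reverse complement ACCACA, a core bound by Runx factors, and CAGGAA or TTCCTG, a core bound by Ets factors.
Cd3g: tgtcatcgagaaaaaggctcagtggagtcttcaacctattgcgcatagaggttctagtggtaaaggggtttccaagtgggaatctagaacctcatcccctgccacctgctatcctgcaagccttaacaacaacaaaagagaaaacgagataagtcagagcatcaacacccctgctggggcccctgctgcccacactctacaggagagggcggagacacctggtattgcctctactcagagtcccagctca
Cd3d: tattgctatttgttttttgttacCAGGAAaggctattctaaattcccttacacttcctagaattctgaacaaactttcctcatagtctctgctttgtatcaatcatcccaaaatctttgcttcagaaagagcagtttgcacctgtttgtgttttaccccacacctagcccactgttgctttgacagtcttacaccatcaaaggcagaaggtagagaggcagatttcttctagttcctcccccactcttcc
Lck: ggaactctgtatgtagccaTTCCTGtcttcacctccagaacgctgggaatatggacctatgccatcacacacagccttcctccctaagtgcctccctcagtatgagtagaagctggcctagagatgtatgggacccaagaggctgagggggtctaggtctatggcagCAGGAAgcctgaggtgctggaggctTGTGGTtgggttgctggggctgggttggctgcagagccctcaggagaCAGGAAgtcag

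The Runx core was in 11 of the 37 windows (29.7%) and in 16.8% of all 32851 windows of the same length, and the Ets core was in 16 (43.2%) and in 30.6%. The stretch of Lck holds 1 Runx and 3 Ets cores, that of Cd3d holds 1 Ets core, and in that of Cd3g these letters are not found. A Runx and an Ets core can share 2 letters at their ends, and a match describes the sequence only.

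Across the 28 genes wild-type replicate 1 stood apart. It was the highest of the 7 arrays for 22 of them, where it was the highest for 10.7% of all genes tested. It exceeded every other array by 1 or more on the log2 scale for 15 (0.84% of all genes) and by 2 or more for 9 (0.169%), and no other array exceeded the next by 1 for any of the 28. The 15 were Cd3d, Cd3g, Cd8a, Cd8b1, Cd5, Cd6, Cd28, Lck, Zap70, Lat, Txk, Tcf7, Lef1, Icos and Klrd1, and in them replicate 1 had 3.16 to 18.2 times the geometric mean of the other 6 arrays. The SD of those 6 arrays was between 0.12 and 1.18 (log2). The mean log2 ratio of the 28 genes was 1.95 in wild-type replicate 1, 0.42 and 0.69 in replicates 2 and 3, and 0.46, 0.70, 0.28 and 0.22 in PRA transgenic replicates 1 to 4. The array of wild-type replicate 1 therefore lay above a range in which the other wild-type arrays and the PRA transgenics overlapped.

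**Figure D1:**
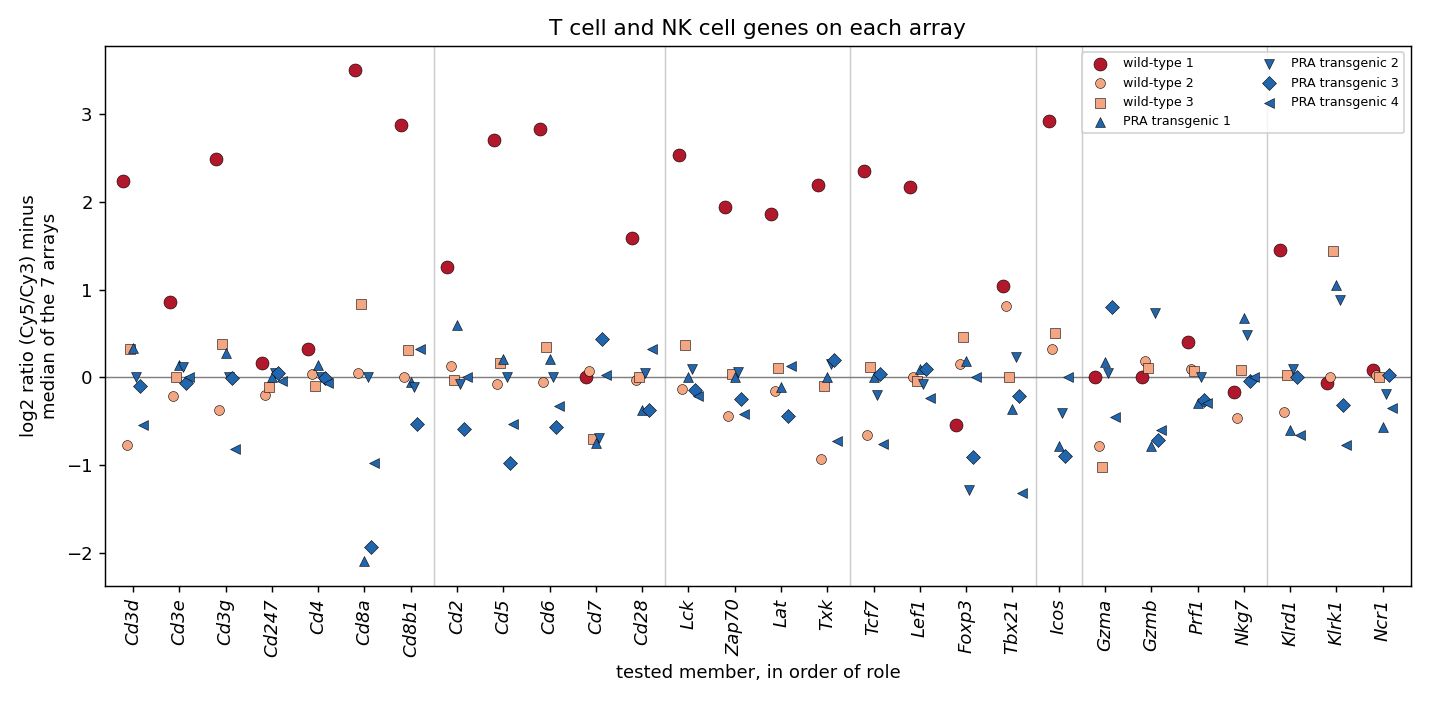
Each point is the log2 ratio of Cy5 to Cy3 of 1 tested gene on 1 array, minus the median of the 7 arrays for that gene, with genes in order of role and grey lines between roles. Wild-type replicate 1 (large red circles) is the highest array for 22 of the 28 genes, most of them genes of T cell roles, while among the granule and NK receptor genes on the right it leads by 1 or more for Klrd1 only.

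Between genotypes, 25 of the 28 genes had a log2 fold change (PRA transgenic over wild-type) below 0, against 47.3% of all genes tested, and their median was -0.63, against 0.01 over all genes. At an unadjusted p under 0.05 in limma 4 genes were lower, Cd8a, Tbx21, Icos and Prf1 (background 4.35%), and 0 were higher (background 3.6%). At an adjusted p under 0.05 the count was 0 in limma, and 1 gene of all those tested passed (0.00444%). Every PRA transgenic array lay below every wild-type array for 3 genes, Cd8a, Icos and Prf1 (background 4.52%). Without wild-type replicate 1 the median was -0.11, 18 genes were below 0 (48.1% of all genes), Cd8a and Icos were lower at an unadjusted p under 0.05 (background 4.45%) and Gzma was higher (background 3.05%). Cd8a and Icos are also the 2 tested genes whose gland signal was well above background on every wild-type but not on every PRA transgenic array. They entered the test through wild-type alone, where they are high, so their calls and their lack of overlap are descriptions only. Of the 15 genes in which replicate 1 led by 1 or more, 13 had a log2 fold change under 0.5 in size without it, all but Cd8a and Icos.

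Genes of the antigen receptor were the first group. Cd3d encodes the delta chain of CD3, and its log2 ratio was 4.01, 1.00 and 2.09 in wild-type replicates 1 to 3 and 2.11, 1.77, 1.67 and 1.23 in PRA transgenic replicates 1 to 4. Replicate 1 was far above the rest, and the other wild-type arrays bracketed most of the PRA transgenics. The log2 fold change was -0.67 ± 0.65 (SE, adjusted p = 0.809) and 0.15 without that array.

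Cd3g encodes the gamma chain, and its log2 ratio was 0.91, -1.96 and -1.21 in wild-type and -1.30, -1.58, -1.60 and -2.40 in PRA transgenics. The pattern was that of Cd3d, with a log2 fold change of -0.97 ± 0.65 (SE, adjusted p = 0.711) that became -0.14 without replicate 1. Cd3e, the epsilon chain, had log2 ratios of -0.05, -1.12 and -0.91 in wild-type and -0.77, -0.79, -0.97 and -0.91 in PRA transgenics. Replicate 1 was again the highest, by 0.72 over the next array, and the log2 fold change was -0.16 ± 0.25 (SE, adjusted p = 0.894).

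CD8 is the coreceptor of cytotoxic T cells, with an alpha chain from Cd8a and a beta chain from Cd8b1. Cd8a had log2 ratios of 5.06, 1.60 and 2.39 in wild-type and -0.54, 1.56, -0.38 and 0.58 in PRA transgenics. The genotypes did not overlap, but the highest PRA transgenic array lay only just below the lowest wild-type array. Its log2 fold change was -2.71 ± 0.88 (SE, unadjusted p = 0.017, adjusted p = 0.462) and -1.69 ± 0.63 without replicate 1 (SE, unadjusted p = 0.0341). Its gland signal was well above background on 3 of 3 wild-type and 1 of 4 PRA transgenic arrays, so that it entered the test only through the wild-type arrays, and its second probe was detected on replicate 1 alone.

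Cd8b1 had log2 ratios of 4.16, 1.28 and 1.60 in wild-type and 1.23, 1.17, 0.75 and 1.61 in PRA transgenics. Outside replicate 1 the genotypes overlapped for this chain. Its log2 fold change of -1.16 ± 0.67 (SE, adjusted p = 0.659) became -0.25 without that array.

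Cd4 encodes the coreceptor of helper T cells. Its brightest probe had log2 ratios of 0.46, 0.17 and 0.03 in wild-type and 0.28, 0.14, 0.13 and 0.08 in PRA transgenics, the probe with the hexamer shown above. All 7 values lay within a narrow range, with a log2 fold change of -0.07 ± 0.14 (SE, adjusted p = 0.933). Probe A_51_P236573 had 2.34 in wild-type replicate 1, where alone it was well above background, and -0.78 to 0.42 on the other 6 arrays. Cd247 did the same: its brightest probe had 0.38 to 0.74 on all 7 arrays, while probe A_52_P173555 had 2.13 in replicate 1, where alone it was detected, and -0.44 to 0.31 elsewhere. Replicate 1 was still the highest array for both brightest probes, which stand for the genes in the counts above, by 0.18 for Cd4 and 0.12 for Cd247 over the next array. The second tested probe of each gene did not set replicate 1 apart. A_52_P383089 of Cd4 had 0.73 in replicate 1 and -0.29 to 1.63 on the other arrays, and A_55_P2212968 of Cd247 had -0.05 and -0.12 to 1.99. For both, Cy5 was well above background on 3 of 3 wild-type but 1 of 4 PRA transgenic arrays, so they entered the test only through wild-type. Ratios thus differed between probes of these genes, but only the brightest had a measured reference. For the other probes named here Cy3 was well above background on no array.

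Surface and signalling genes of T cells were the next groups. Cd5 and Cd6 are scavenger receptor family proteins that tune receptor signalling, and Cd28 is the main costimulatory receptor. Their excess in wild-type replicate 1 over the mean of the other 6 arrays was 2.91, 2.90 and 1.66 on the log2 scale, and their log2 fold changes of -1.25, -1.21 and -0.62 became -0.37, -0.32 and -0.08 without it. Cd2, an adhesion receptor, had 3.24 in replicate 1 and 1.39 to 2.57 on the other arrays. Cd7 had 4.30 in replicate 1 and 3.55 to 4.74 elsewhere, and for its brightest probe replicate 1 was not the highest by log2 ratio. In the unscaled log2 Cy5 signal of that probe replicate 1 was the highest, at 8.11 against 6.31 to 7.36. The second Cd7 probe, A_55_P2487394, tested only through wild-type, had log2 ratios of 3.04 in replicate 1 and 0.34 to 2.31 elsewhere. For both probes Cy3 was well above background on no array.

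The kinases Lck, Zap70 and Txk and the adaptor Lat were all highest in wild-type replicate 1, by 2.17, 1.88, 2.00 and 1.73 over the next array. Without it their log2 fold changes moved from -0.99, -0.67, -0.49 and -0.74 to -0.19, 0.05, 0.42 and -0.12. Lat had no value in PRA transgenic replicate 2, where its spot was marked as an outlier, and the fit used the other 6 arrays. Tcf7 and Lef1, the DNA-binding factors of naive T cells, followed the same course, with 2.60 and 2.19 above the mean of the other arrays and log2 fold changes of 0.04 and -0.01 without replicate 1.

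Icos is a costimulatory receptor of activated and follicular helper T cells. Its log2 ratio was 5.38, 2.78 and 2.96 in wild-type and 1.67, 2.05, 1.56 and 2.46 in PRA transgenics. The genotypes did not overlap, and replicate 1 was the highest by 2.42. The log2 fold change was -1.77 ± 0.63 (SE, unadjusted p = 0.0246, adjusted p = 0.476) and -0.94 ± 0.28 without replicate 1 (SE, unadjusted p = 0.014, adjusted p = 0.512). Its gland signal was well above background on 3 of the 4 PRA transgenic arrays, so that it too entered the test only through wild-type.

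Tbx21 encodes T-bet, the factor of type 1 helper and cytotoxic cells and of NK cells. Its log2 ratio was 4.30, 4.08 and 3.26 in wild-type and 2.90, 3.49, 3.04 and 1.94 in PRA transgenics. PRA transgenic replicate 2 lay above wild-type replicate 3, so that the genotypes overlapped. The log2 fold change was -1.04 ± 0.40 (SE, unadjusted p = 0.0362, adjusted p = 0.518) and -0.82 without replicate 1 (unadjusted p = 0.12).

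Foxp3 is the factor of regulatory T cells. Its log2 ratio was 0.12, 0.81 and 1.12 in wild-type and 0.85, -0.63, -0.25 and 0.66 in PRA transgenics. By log2 ratio replicate 1 was the lowest wild-type array here, and the genotypes overlapped. In the unscaled log2 Cy5 signal replicate 1 was the highest array, at 5.22 against 4.16 to 4.89 elsewhere. The log2 Cy3 signal was also highest in replicate 1, at 5.10 against 3.28 to 4.82. Cy3 was well above background on only 2 arrays, so that most of these ratios lack a measured reference. The log2 fold change was -0.53 ± 0.42 (SE, adjusted p = 0.762).

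Granule and NK receptor genes formed the last groups. Of their 7 tested genes replicate 1 was the highest for 3 and led by 1 or more for 1, Klrd1, where of the 21 tested genes of T cell roles it was the highest for 19 and led by 1 or more for 14. The mean log2 ratio of the 7 was 3.26 in wild-type replicate 1, 2.83 and 3.12 in replicates 2 and 3, and 2.57 to 3.31 in PRA transgenics. That of the 21 was 1.51, -0.38 and -0.13 in wild-type and -0.61 to -0.21 in PRA transgenics. This contrast between the roles is a description, with no test.

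Gzma, granzyme A, had log2 ratios of 4.15, 3.37 and 3.13 in wild-type and 4.33, 4.20, 4.95 and 3.69 in PRA transgenics. PRA transgenic replicates 1 to 3 lay above every wild-type array, and replicate 4 lay between them. Its log2 fold change was 0.74 ± 0.35 (SE, unadjusted p = 0.0695, adjusted p = 0.592), and without wild-type replicate 1 it was 1.04 ± 0.34 (SE, unadjusted p = 0.0211, adjusted p = 0.543). In Cy5 alone it was 0.76 (unadjusted p = 0.0346), while in Cy3 alone it was 0.02.

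Prf1 encodes perforin, which opens the membrane of the target cell. Its log2 ratio was 0.22, -0.10 and -0.11 in wild-type and -0.48, -0.19, -0.45 and -0.48 in PRA transgenics. The genotypes did not overlap, and PRA transgenic replicate 2 lay nearest to wild-type. The log2 fold change was -0.40 ± 0.14 (SE, unadjusted p = 0.0244, adjusted p = 0.476) and -0.29 without replicate 1 (unadjusted p = 0.0944). In Cy5 alone it was 0.95 (unadjusted p = 0.0267), the opposite direction, and in Cy3 alone, the reference, it was 1.35 (unadjusted p = 0.00265).

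Gzmb, granzyme B, had 3.38 to 3.57 in wild-type and 2.59 to 4.11 in PRA transgenics, and Nkg7, a granule membrane protein, had 3.61 to 4.16 and 4.04 to 4.76. Ncr1 encodes NKp46, a receptor that defines NK cells, and its log2 ratio was 3.08, 3.03 and 3.00 in wild-type and 2.44, 2.81, 3.03 and 2.65 in PRA transgenics. The wild-type arrays hardly differed, replicate 1 included, and PRA transgenic replicate 3 lay within them. The log2 fold change was -0.31 ± 0.16 (SE, adjusted p = 0.621).

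Klrd1 encodes CD94, the partner of the NKG2 receptors, and had 5.63 in wild-type replicate 1 and 3.52 to 4.27 on the other arrays. For Klrk1 the probes shown above gave different results. The brightest, A_66_P120419, had 2.47, 2.54 and 3.98 in wild-type and 3.59, 3.41, 2.22 and 1.76 in PRA transgenics, with a log2 fold change of -0.25 ± 0.57 (SE, adjusted p = 0.938). Probe A_51_P189451 had 2.86, 2.73 and 2.83 in wild-type and 1.53, 1.96, 1.83 and 1.69 in PRA transgenics, a gap with no overlap. Its log2 fold change was -1.06 ± 0.14 (SE, unadjusted p = 9.6e-05, adjusted p = 0.137), and it is named here after its values were seen. In Cy5 alone it was -0.45 (unadjusted p = 0.00734), with normexp and loess -0.28, and in Cy3 alone 0.60. On no array did Cy3 reach a level well above background for either Klrk1 probe, so that both ratios lack a measured reference.

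**Figure D2:**
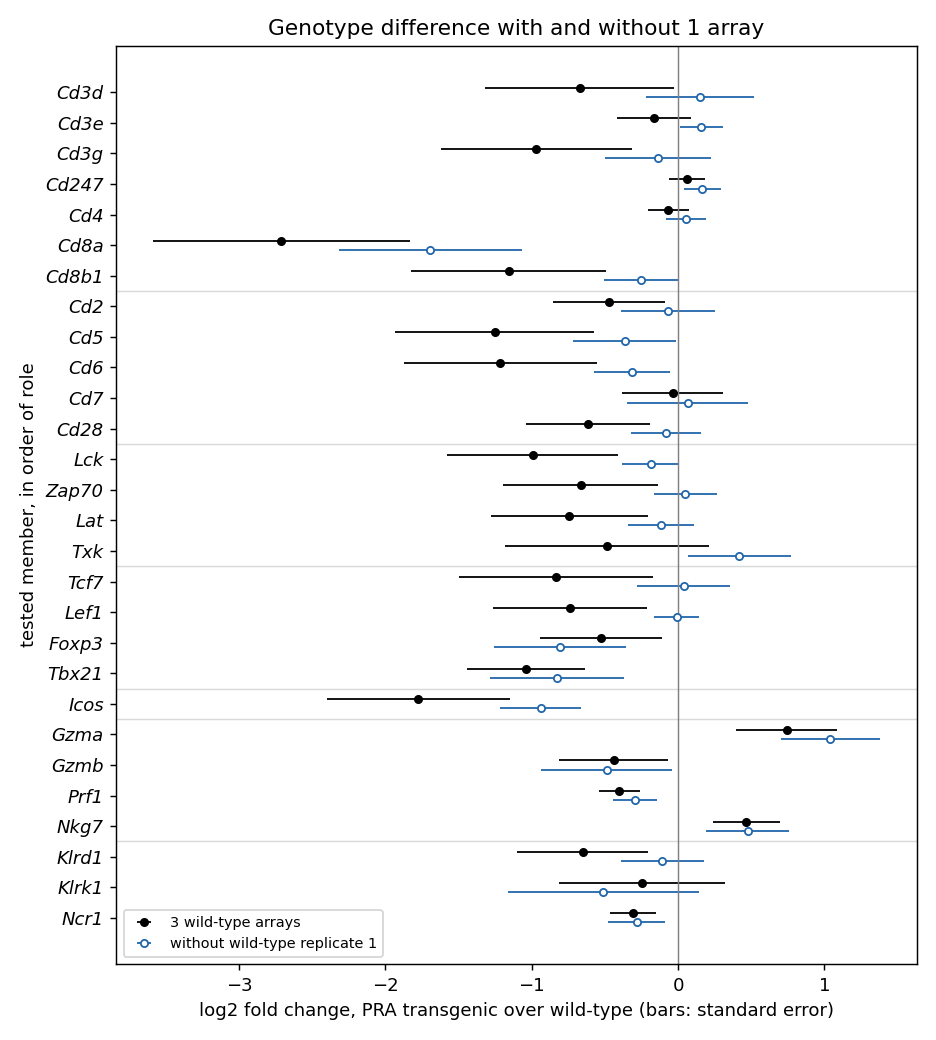
Log2 fold changes (PRA transgenic over wild-type) of the 28 tested genes, in order of role, with all arrays (black) and without wild-type replicate 1 (open blue circles), each with its standard error from limma. Most T cell genes move toward 0 without that array, Cd8a and Icos, tested only through their wild-type signal, stay below 0 at -1.69 and -0.94, and Gzma goes from 0.74 to 1.04.

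The remaining 6 genes had no test because in neither genotype was their gland signal well above background throughout. Cd27, a costimulatory receptor, was detected on 1 of 3 wild-type and 0 of 4 PRA transgenic arrays, and Eomes, a factor of cytotoxic cells, on 2 and 0. These counts rest on a detection limit that was higher on the PRA transgenic arrays. Against a limit set from the lowest signal well above background, the wild-type mean was 1.30-fold higher for Cd27 and 1.28-fold for Eomes. This mean takes wild-type arrays without detection at their read signal, so neither value is a lower bound. Both values rested on wild-type replicate 1. Its normalized Cy5 signal (log2) was 5.94 for Cd27, against 3.10 and 3.25 in replicates 2 and 3, and 5.09 for Eomes, against 3.81 and 3.53. Without it the wild-type means of 3.17 and 3.67 lay below the limits of 3.71 and 3.78, and no excess remained. Themis was detected on 1 array of each genotype, Ubash3a by 1 of its 3 probes on 1 wild-type array, and Ctla4 and Gzmk on no array.

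The reference channel bears on the genes with the lowest p. Cy3 was well above background on all 7 arrays for 17 of the 28 genes, on none for 8 and on some for 3. Among the 17, 15 had a log2 fold change below 0, wild-type replicate 1 was the highest for 16 and led by 1 or more for 11, and the gene lower at an unadjusted p under 0.05 was Prf1. Cd8a, Tbx21 and Icos were among the 8 without a measured reference. For these the Cy3 signal, although not well above background, was higher on the PRA transgenic arrays by 0.56, 0.89 and 0.64. In Cy5 alone their log2 fold changes were -2.15 (unadjusted p = 0.0437), -0.15 (unadjusted p = 0.641) and -1.14 (unadjusted p = 0.107). The part of the reference channel, and of the slide row that goes with it, in these results was not tested.

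**Figure D3:**
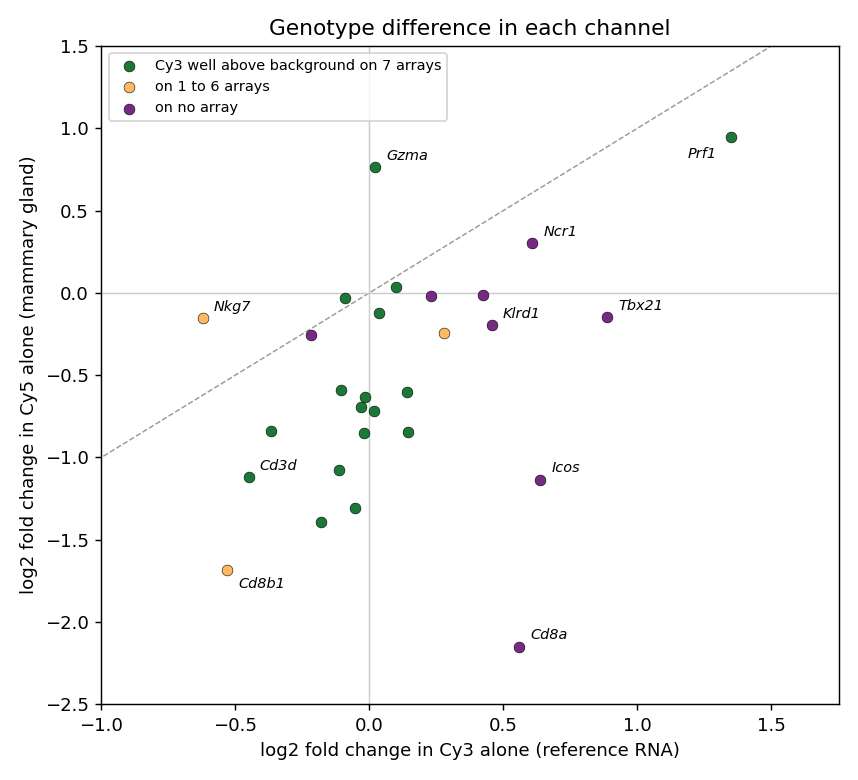
Log2 fold changes of the 28 tested genes in the Cy5 channel (gland, y axis) against the Cy3 channel (reference, x axis), each channel scaled to its own 75th percentile on every array, with equal change in both along the dashed line. Colour gives the number of arrays on which Cy3 was well above background, and Tbx21, Icos and Cd8a lie to the right of 0 among the genes with no measured reference, while Prf1 is above 0 in both channels.

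The lists of other cell types show what else was high on the same array. For B cell genes, of which 5 were tested, the mean log2 ratio was 0.76 in wild-type replicate 1 and -1.08 to -0.43 on the other 6 arrays, and for genes of lymph node stroma and follicles, of which 4 were tested, it was 4.89 and 2.61 to 3.24. Replicate 1 was the highest array for 3 of the 5 and 2 of the 4, and led by 1 or more for 2 in each list. Ms4a1, the B cell antigen CD20, was at -0.23 in replicate 1 and at -5.26 to -3.85 elsewhere. Cr2, the complement receptor of B cells and follicular dendritic cells, was at 4.87 and 0.16 to 1.09, and Ccl19, a chemokine of the T cell zone, at 6.09 and 2.36 to 3.81. By log2 ratio, Ccl21a, Cxcl13 and Madcam1 of the lymph node list did not single out this array. The chemokine Ccl21a was at 4.01 in replicate 1 and 3.22 to 4.21 elsewhere, the follicle chemokine Cxcl13 at 4.60 and 3.06 to 5.54, and the untested Madcam1, an adhesion molecule of vessels, at 2.40 and 0.38 to 4.03. In the unscaled log2 Cy5 signal, Ccl21a was at 11.33 in replicate 1 and 6.59 to 9.74 elsewhere. Its log2 Cy3 signal was at 7.33 and 2.98 to 5.89. Cxcl13 was at 9.43 and 5.77 to 9.20 in Cy5, and Madcam1 at 4.30 and 2.88 to 6.27. Fcer2a, the receptor CD23 of B cells and an untested gene of the same list, was detected on wild-type replicate 1 only. Summed over a list, the Cy5 signal in units of each array's 75th percentile was 38.3 against 10.8 to 13.7 for the T cell roles, 9.00 against 1.91 to 2.52 for B cells and 11.4 against 0.954 to 2.56 for the lymph node list. The labels say that lymph nodes were cut out of every gland, and the part of lymph node tissue in the T cell result was not tested.

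Other lists did not set replicate 1 apart in this way. Macrophage genes had means of 2.89 to 3.55 on the 7 arrays with PRA transgenic replicate 4 the highest, and genes of basal epithelium had 2.28 to 2.64. Dendritic cell genes had 2.72 to 2.76 in wild-type, replicate 1 included, and 1.59 to 2.31 in PRA transgenics. Of these 5 tested genes, 3 lacked a measured reference on every array. In Cy3 alone the log2 fold changes of the 5 ran from -0.07 to 0.60. In summed Cy5 signal, scaled as above, the genotypes overlapped, at 2.30 to 2.64 in wild-type and 1.21 to 2.44 in PRA transgenics. Replicate 1 led by 1 or more for 1 of the 5, Flt3, at 0.40 against -1.23 to -0.77 elsewhere. Skeletal muscle genes were at 1.53 in wild-type replicate 1 and higher still in wild-type replicate 3 and PRA transgenic replicate 4, at 3.08 and 2.16, where the T cell genes were not high.

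**Figure D4:**
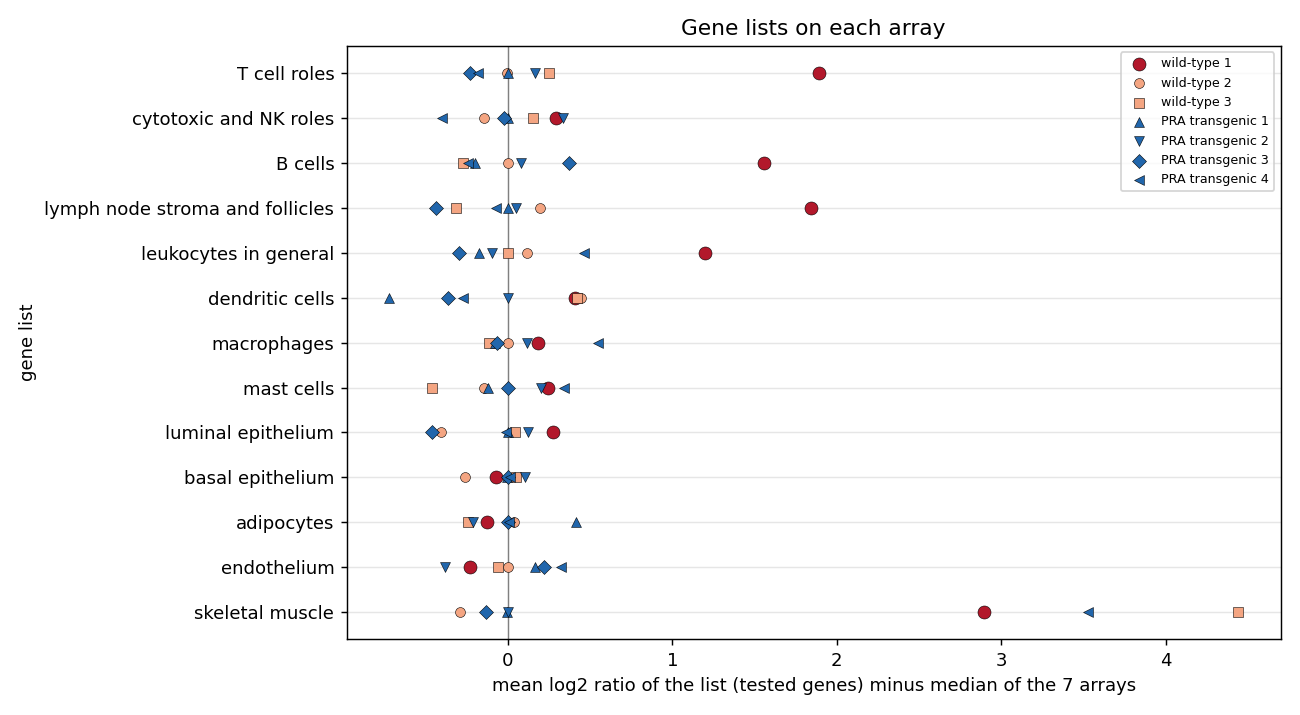
Mean log2 ratio of the tested genes of each list on each array, minus the median of the 7 arrays. Wild-type replicate 1 (large red circles) lies apart for the T cell roles, B cells, lymph node genes and leukocytes in general, and not for the cytotoxic and NK roles, macrophages or mast cells, and skeletal muscle genes are high on 3 arrays.

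A further 90 genes act with these in T and NK cells, of which 81 could be tested. Wild-type replicate 1 was the highest array for 49 of them (background 10.7%) and led by 1 or more for 16 (background 0.84%). At an unadjusted p under 0.05, 15 were lower in PRA transgenics and 1 higher (backgrounds 4.35% and 3.6%), with a median log2 fold change of -0.43, and without replicate 1 the count lower was 8 (background 4.45%) and the median -0.07. Genes with the lowest p among those that differed by 1.5-fold or more follow. For the first of these, Fasl and Klrg1, the gland signal was well above background on all wild-type but only 2 of the 4 PRA transgenic arrays, so that they entered the test only through the genotype where they are high and their differences are descriptions. Fasl, the death ligand of cytotoxic cells, had 3.01, 2.61 and 2.57 in wild-type and 1.20, 2.12, 1.80 and 1.39 in PRA transgenics. Its fitted log2 fold change was -1.10 ± 0.25 (SE, adjusted p = 0.351) and -0.66 in Cy5 alone. Klrg1, a receptor of terminally differentiated effector cells, had 2.20, 3.57 and 3.37 and then 2.02, 1.85, 0.53 and 0.54. Its fitted log2 fold change of -1.81 was -2.23 without replicate 1.

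Ikzf1, the lymphoid factor Ikaros, and Il12rb1, a chain of the interleukin 12 receptor, had a reference well above background on all 7 arrays. Their log2 fold changes were -0.80 and -0.65 (adjusted p = 0.421 and 0.429), and -0.60 and -0.62 without replicate 1. Il7r, Il18r1 and Prkcq, which encode the receptors of interleukin 7 and interleukin 18 and a kinase of receptor signalling, had log2 fold changes of -2.19, -1.24 and -1.56. Without replicate 1 they had -1.33, -0.92 and -0.94, with no reference well above background on any array. The gene that was higher was Lag3, an inhibitory receptor of activated T cells, at 1.87, 1.93 and 1.78 in wild-type and 3.23, 1.94, 2.91 and 3.52 in PRA transgenics, named here after its values were seen. Its log2 fold change was 1.04 ± 0.35 (SE, unadjusted p = 0.0212, adjusted p = 0.463), and PRA transgenic replicate 2 lay close to wild-type. Without wild-type replicate 1 the count of partners higher at an unadjusted p under 0.05 in limma was 0 (background 3.05%), so that Lag3 did not pass.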

How the data were processed

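RNA from 3 wild-type and 4 PRA transgenic mammary glands was measured on 60-base oligonucleotide arrays against a common reference. The authors deposited scanner output of Agilent Feature Extraction 12.0 (version per the labels), whose processed intensity values were background-subtracted and dye-normalized, and a series table of log2 ratios. In it, as deposited, 100% of the kept log2 values lay within 0.01 of the scanner log2 ratio centred on each probe's median. Here the log2 ratio of processed Cy5 to Cy3 was taken, control and outlier spots were dropped, and repeated spots were averaged by probe. Probe positions are on mm9. A probe was kept if Cy5 was well above background throughout 1 genotype or both, which left 34289 of 56605, and all were fitted in limma 3.58.1 (lmFit, eBayes; R 4.3.3), with the steps tested on simulated data. P-values are two-sided, and Benjamini-Hochberg adjustment ran over all 34289 probes. Each gene was represented by its kept probe with the highest Cy5 signal.

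The members, the other gene lists and the tests were chosen with earlier results of these data known. The genes given on every array are those with an unadjusted p under 0.05 or genotypes that do not overlap and the defining genes Cd3d, Cd3e, Cd3g, Cd4, Cd8a, Cd8b1, Gzma, Prf1, Ncr1 and Foxp3. Partner genes are named at an unadjusted p under 0.05 and 1.5-fold, at most 8 by lowest p, and exceptions are marked. Not every gene that this rule gives is reported here. Alternatives were normexp (offset 50) with loess, the series table, no filter, both channels above background, quantile normalization, Cy5 alone, an intensity trend, the methods' t-test, array weights, the replicate block, the median over probes and each array left out. The number of arrays limits the precision.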

Additional observations from a re-analysis of the deposited data

Results flagged for a closer look

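In 5 of 54 groups of the 4 PRA transgenic arrays 1 array stood apart, by the gap to its nearest neighbour as a share of the whole range, where chance alone sets about 1 in 20 apart (2.7 of 54). For Gzmb this share was 0.878, with PRA transgenic replicate 2 at a log2 ratio of 4.11 and the others at 2.59 to 2.78. Prf1 had a share of 0.893 with the same animal, at -0.19 against -0.48 to -0.45. The mean of the homing and cytokine receptor genes had a share of 0.875, with replicate 4 at 1.35 and the others at 1.02 to 1.06. Basal epithelium genes had a share of 0.869, with replicate 2 at 2.64 against 2.54 to 2.55. Skeletal muscle genes had a share of 0.963, with replicate 4 at 2.16 against -1.50 to -1.36. Wild-type arrays, 3 in number, were too few for this comparison.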

How the results depend on the processing

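No member passed an adjusted p under 0.05 under any of the 18 alternatives run. The slide as a block was not run, since there was 1 slide. The count of members lower at an unadjusted p under 0.05, 4 in limma, was 0 with normexp and loess, 1 with both channels above background, 1 in Cy5 alone, 2 by the methods' t-test and 2 with the replicate block, and 1 to 9 with each array left out. The count higher, 0, was 2 in Cy5 alone and 2 after quantile normalization, and 0 to 1 with an array left out. Members whose genotypes do not overlap, 3, were 0 with normexp and loess, 5 with no filter, 1 with both channels above background, 0 in Cy5 alone and 3 to 7 with an array left out. Their median ranged from -0.98 to -0.11 with an array left out. Partners lower, 15, were 6 with both channels above background and 8 to 18 with an array left out, and partners higher, 1, were 0 with both channels above background, by the methods' t-test and with the replicate block, 2 after quantile normalization and 0 to 2 with an array left out. Same-numbered arrays of the genotypes correlated at 0.0997, -0.30 and 0.04 in their deviations. Such correlations over all probes cannot settle whether the numbers pair the animals, and the main fit was unpaired. The causes of these changes were not tested.

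Single genes changed direction in Cy5 alone for Cd247 (-0.030), Cd4 (0.036), Prf1 (0.95), Nkg7 (-0.15) and Ncr1 (0.30). Others were Cd4 by the median over probes (0.34), Cd7 after quantile normalization (0.078) and with array weights (0.0027), Klrk1 with the replicate block (0.078) and Ncr1 with normexp and loess (0.12). With an array left out the range of the log2 fold change crossed 0 for Cd3d (-1.36 to 0.15), Cd3e (-0.38 to 0.16), Cd247 (-0.015 to 0.17), Cd4 (-0.16 to 0.053), Cd7 (-0.28 to 0.13), Zap70 (-1.14 to 0.048), Txk (-1.15 to 0.42), Tcf7 (-1.47 to 0.039) and Klrk1 (-0.53 to 0.24).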

Other observations

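The 81 tested partner genes fall into 5 roles. For T cell receptor signalling, 25 genes, wild-type replicate 1 was the highest array for 18 and led by 1 or more on the log2 scale for 7, where these shares over all genes tested were 10.7% and 0.84%. For homing and cytokine receptors, 16 genes, it was the highest for 11 and led by 1 or more for 3, and for costimulation and checkpoints, 12 genes, for 8 and 2. T cell transcription factors, 13 genes, had 7 and 2, and NK receptors and effector genes, 15 genes, had 5 and 2. At an unadjusted p under 0.05 in limma the genes lower in PRA transgenics numbered 4, 5, 1, 2 and 3 in this order (4.35% of all genes). Without wild-type replicate 1 they numbered 1, 4, 0, 1 and 2 (4.45% of all genes).

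The lists of the remaining cell types had mean log2 ratios on the 7 arrays of 4.71 to 5.51 for mast cells, 2.24 to 2.98 for luminal epithelium, 5.70 to 6.36 for adipocytes and 4.48 to 5.19 for endothelium. Genes of leukocytes in general had 0.38 in wild-type replicate 1 and -1.11 to -0.35 on the other arrays. Clec9a, a receptor of cross-presenting dendritic cells, was lower in PRA transgenics at an unadjusted p of 0.00118 in limma (adjusted p = 0.33), with log2 ratios of 3.73, 3.90 and 3.25 in wild-type and 2.07, 1.83, 2.30 and 2.80 in PRA transgenics, and it was picked after its values were seen. Its reference signal was well above background on no array and was higher on the PRA transgenic arrays by 0.60 (log2). From -1.37 the log2 fold change moved to -0.77 in Cy5 alone and to -0.30 with normexp and loess.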
